A study of Mus musculus with 11 samples.

Results

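Lipopolysaccharide (LPS), the outer membrane lipid of Gram-negative bacteria, was given for 5 h at 100 ng/ml to RAW cells, a mouse macrophage-type line, that carried a control hairpin RNA. The response of these control cells is described here for every gene that passed a filter on low values, which kept 13919 of the 52143 genes in the table. The filter kept a gene whose log2(TPM + 1) reached 1 in at least 2 of the 10 libraries, and it used levels and not differences. TPM counts transcripts relative to the whole library, a level per transcript length that adds up to 1000000 in each library. The LPS library is replicate 2 of the control cells, the single one with a column in the table, and it was set against resting replicates 1 and 3. The sample titles call these numbers sets. No set is thus shared by the 2 sides, and within control cells a difference between sets cannot be told apart from the response to LPS. The LPS sample labelled replicate 3 of these cells was not analysed here. Resting replicate 2 was left out because one small RNA gene, Mir6236, held 57.8% of all TPM there (the remaining 9 libraries had 3.79% to 8.78%), and coding genes took 7.81%. A second line carries a hairpin against Ccdc88a, which encodes the G protein modulator GIV (Girdin), and its 3 resting and 3 LPS libraries entered the same fit. All 4 groups are hairpin-carrying RAW cells, and resting cells had no LPS. No label says that the replicates were separate cultures, so p-values measure the spread between these libraries, which may be technical.

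LPS is bound by CD14 and by the receptor pair of Toll-like receptor 4 (Tlr4) and MD-2 (Ly96) on macrophages. One arm of the signal runs through MyD88 to the transcription factor NF-kB and to AP-1 factors, which induce cytokines and chemokines. The other arm runs through TRIF to IRF3 and interferon beta, which acts back on the cells through its own receptor and induces antiviral genes. The response also induces its own inhibitors, such as proteins that block cytokine receptors, degrade cytokine messenger RNA or switch off kinases.

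The promoters of the first 4 of the most increased genes and the first 2 of the most decreased genes with an entry in the RefSeq table (build GRCm38.p6) show what precedes genes at either end of the response. Each line gives the 250 bases before the annotated transcription start, 5′ to 3′, with matches to 9 searched motifs in capitals.
Il1b, chr2:129371140-129371389 (minus strand): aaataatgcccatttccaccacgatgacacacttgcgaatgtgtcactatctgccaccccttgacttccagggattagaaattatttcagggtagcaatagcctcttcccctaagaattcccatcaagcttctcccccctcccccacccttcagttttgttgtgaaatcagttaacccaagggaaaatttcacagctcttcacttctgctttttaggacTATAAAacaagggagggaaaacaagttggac
Cxcl2, chr5:90903649-90903898 (plus strand): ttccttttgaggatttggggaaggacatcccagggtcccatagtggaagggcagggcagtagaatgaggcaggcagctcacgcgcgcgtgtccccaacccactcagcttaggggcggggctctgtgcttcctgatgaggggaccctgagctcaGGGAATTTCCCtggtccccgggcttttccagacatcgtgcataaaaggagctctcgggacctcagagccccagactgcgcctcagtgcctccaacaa
Saa3, chr7:46715677-46715926 (minus strand): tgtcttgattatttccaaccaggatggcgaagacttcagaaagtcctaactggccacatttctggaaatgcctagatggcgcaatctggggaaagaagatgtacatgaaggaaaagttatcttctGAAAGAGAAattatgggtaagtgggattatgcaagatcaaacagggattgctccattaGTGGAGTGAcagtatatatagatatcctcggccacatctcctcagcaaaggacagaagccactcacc
Il1a, chr2:129309973-129310222 (minus strand): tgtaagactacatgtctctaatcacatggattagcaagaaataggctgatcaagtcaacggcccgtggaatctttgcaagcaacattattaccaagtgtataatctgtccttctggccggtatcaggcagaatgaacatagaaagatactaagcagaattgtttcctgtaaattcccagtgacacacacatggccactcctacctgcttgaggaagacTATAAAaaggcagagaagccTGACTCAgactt
Gpr183, chr14:121965194-121965443 (minus strand): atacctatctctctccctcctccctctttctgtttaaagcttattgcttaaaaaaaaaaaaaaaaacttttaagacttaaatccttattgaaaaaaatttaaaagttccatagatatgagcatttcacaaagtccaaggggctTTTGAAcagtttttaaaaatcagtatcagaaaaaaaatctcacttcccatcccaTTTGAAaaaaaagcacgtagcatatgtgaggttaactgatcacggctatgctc
Rasgrp3, chr17:75435655-75435904 (plus strand): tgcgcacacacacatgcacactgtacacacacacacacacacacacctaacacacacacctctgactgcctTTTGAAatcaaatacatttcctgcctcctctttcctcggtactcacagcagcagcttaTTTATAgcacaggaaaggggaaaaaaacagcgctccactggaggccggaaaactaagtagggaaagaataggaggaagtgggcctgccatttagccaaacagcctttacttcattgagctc

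The capitals in the Il1b promoter mark a TATA box (TATAAA), from -31 to -26 relative to the transcription start. Those in Cxcl2 mark a kB motif, the recognition sequence of NF-kB, which matches in 2 overlapping frames from -97 to -87. Saa3 holds a match to the interferon response element (GAAANNGAA) and one to a sterol element (TCACNCCAC). Il1a holds a TATA box and an AP-1 motif (TGANTCA), the latter from -12 to -6. Both decreased genes hold matches to the cell cycle homology region (TTTGAA), and Rasgrp3 also has TATAAA on the other strand. The cyclic AMP element (TGACGTCA), CCAAT and an E2F motif (TTTNNCGC) matched none of the 6. Both strands were searched, and of all 32851 promoters listed there 7.25% hold kB, 7.13% the interferon element, 6.75% AP-1, 12.4% TATAAA, 16.0% the cell cycle element and 1.05% the sterol element. A match describes these letters and no binding. The share of promoters with each motif among increased genes was not computed, because the RefSeq table held a promoter for 160 of the 219 most increased coding genes (73.1%), under the 80% set for such a check.

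A large part of the transcripts in the control cells differed in level between the LPS library and the resting libraries. Of the 13919 genes 2029 (14.6%) were called higher and 6038 (43.4%) lower at an adjusted p under 0.05, with limma across all genes. The largest rises reached 11.37 log2 units, in Il1b, and the largest called fall was -4.91, in Gpr183. Of the called genes 281 rose by at least 3 log2 units, 63 by at least 5 and 10 by at least 8, whereas 76 fell by at least 3 and none by at least 5. With the left-out resting replicate 2 included, the fit called 428 genes higher and 53 lower, and with the 3 control libraries alone 955 and 1396. All 8067 called genes had the LPS library outside the range of both resting libraries, as had 12094 of all genes tested. Where this is stated for called genes below, it describes them and adds nothing to their calls. These 2 resting libraries differed from each other by a median of 0.18 log2 units per gene, and by less than 0.94 for 95% of genes. One library against 2 cannot reach a p below 0.333 in an exact permutation test, so each call rests on the fit, which assumes that the lone LPS library varies like the other groups. All log2 changes are of TPM + 1 and understate the change of transcripts near 0.

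The balance of rises and falls depends on the scale. The median change of all 13919 genes was -0.39 log2 units, and it moved by up to 0.432 when the libraries were scaled in 4 other ways (trimmed means, quantiles, a total without the most abundant genes, and removal of each library's trend with GC content). TMM scaling gave 3908 genes higher and 3423 lower, and GC trend removal 4021 and 3576. Under all 5 scalings 1931 genes (13.9%) were called higher and 3023 (21.7%) lower, while 352 were called in opposite directions by different scalings. The shares of 13.9% and 21.7% are the ones to set beside each list count under all 5 scalings below. Of the 76 falls of at least 3 log2 units 74 were called under all 5, and of the 3259 falls below 1 log2 unit 514 were. In bulk RNA, fewer cells of a type and less RNA per cell cannot be told apart.

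**Figure D1:**
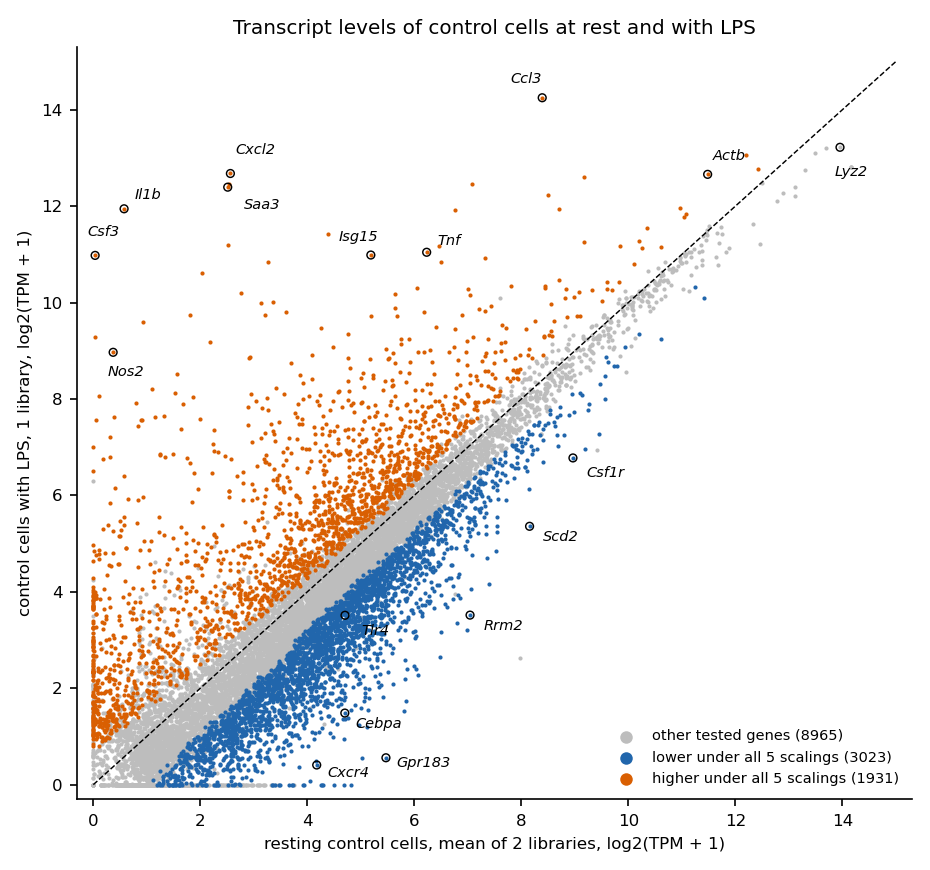
Level of each of the 13919 tested genes in the resting control cells (x axis, log2(TPM + 1), mean of replicates 1 and 3) and in the control cells with LPS (y axis, log2(TPM + 1), 1 library). Orange points were called higher and blue points lower under all 5 scalings, grey points are the rest; Il1b at the upper left went from under 1 TPM to 3939 TPM, and Gpr183 lies far below the diagonal.

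The macrophage label was checked against markers. Of 12 macrophage markers 11 passed the filter, and Mertk did not. The lysozyme Lyz2 was the most abundant coding transcript at rest, at 15913 and 15831 TPM, and Cd14 stood at 1241 and 1352 TPM. None of 12 lymphocyte and 9 neutrophil or mast cell markers passed the filter, and their highest values in the 3 libraries were 1.13 and 0.273 TPM. Of 15 stromal, endothelial and epithelial markers the endothelial gene Vwf alone passed, at 4.43 and 5.00 TPM at rest and 2.15 TPM with LPS. The hairpin target Ccdc88a was at 10.0 and 7.69 TPM at rest and 5.76 TPM with LPS, a log2 change of -0.53 ± 0.20 (SE) that was not called (adjusted p = 0.0554).

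The genes that rose most took over a large part of the transcript pool. These values describe classes that were formed by their change, so they carry no test. The 219 coding genes that rose by at least 3 log2 units held 0.550% and 0.554% of all coding TPM in the resting libraries and 15.6% in the LPS library. Coding genes that fell by less than 1 log2 unit gave up the most, from 34.1% and 33.9% to 21.1%. Those that fell by at least 2 log2 units held only 1.95% and 2.06% at rest and 0.298% with LPS. In the resting libraries 233 and 278 coding genes made up 50% of the coding TPM and 214 did with LPS, so that the resting libraries differed from each other by more than the first differed from the LPS library. Of the 281 genes of any type that rose by at least 3 log2 units, 273 had an annotated length. Their median exonic length was 2556 bases and their median gene span 13.3 kb, against 3637 bases and 16.7 kb over all genes tested. Short genes were not particular to this class, since genes not called had medians of 2694 bases and 11.3 kb. Genes that rose by 1 to 3 log2 units had 3596 bases and 16.7 kb.

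**Figure D2:**
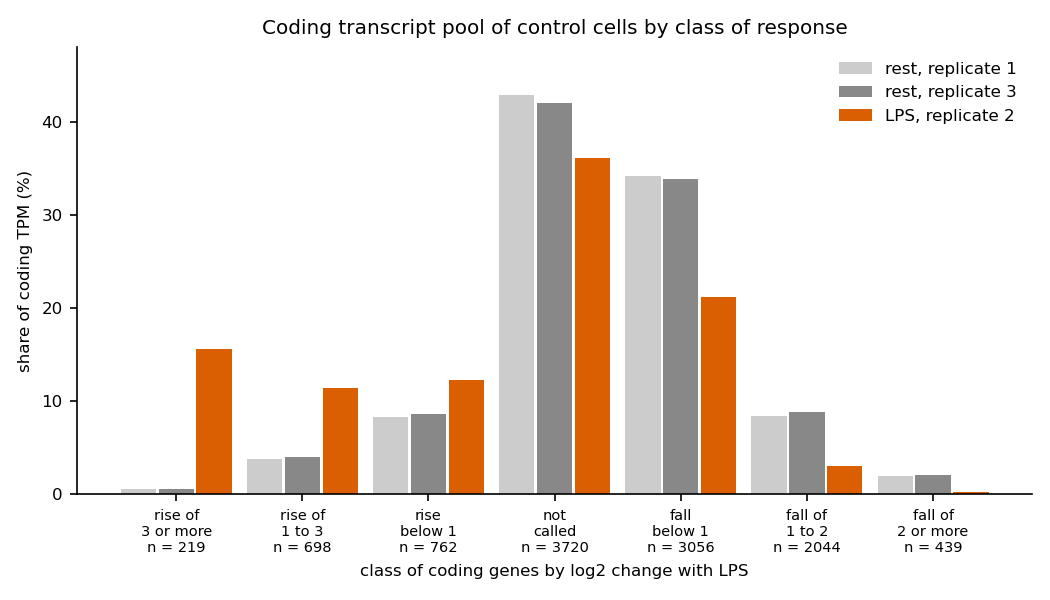
Share of coding TPM (y axis, percent) held by 7 classes of coding genes, from a rise of at least 3 log2 units to a fall of at least 2, in the 2 resting control libraries and the LPS library. The first class goes from under 1% in both resting libraries to 15.6%.

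The order of the most abundant transcripts changed with it. Ccl3, a chemokine that recruits monocytes and lies at chromosome 11, 83647844 to 83649355 (GRCm38), was at 319 and 350.3 TPM at rest and 19447 TPM with LPS, and moved from rank 321 among coding genes to rank 1. Cxcl2, which attracts neutrophils, moved from rank 8825 to rank 8, at 5.49 and 4.37 TPM at rest and 6544 TPM with LPS. Ccl9, another monocyte chemokine, moved from rank 198 to 10. The LPS library lay above both resting libraries for all of them. Fth1, the ferritin heavy chain that stores iron, moved from rank 13 to 5, at 4409 and 4974 TPM at rest and 8596 TPM with LPS. Actb, the cytoskeletal beta actin often used as a reference gene, rose by 1.18 ± 0.15 (SE) log2 units, from 2564 and 3183 to 6464 TPM. Lyz2 moved from rank 1 to 2, at 9538 TPM with LPS, a change of -0.73 ± 0.076 (SE) that turned positive under quantile normalization. The small calcium-binding protein gene S100a4 went from 8401 and 9436 to 5413 TPM. This change of -0.72 ± 0.091 (SE) was called lower, but not under all 5 scalings. Spp1, which encodes the secreted protein osteopontin, went from 5508 and 5462 to 6974 TPM.

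For 105 called risers both resting libraries list a level of 0, so no fold change is given. Ccl7, a monocyte chemokine at chromosome 11, 82045712 to 82047525, reached 128 TPM with LPS, and Serpinb2, an inhibitor of plasminogen activators, reached 89.6 TPM. Csf2, the growth factor GM-CSF, was at 18.5 TPM, Ccl12 at 14.9 TPM and Il1f6, an interleukin 1 family cytokine, at 14.2 TPM. Urah, an enzyme of urate breakdown, was at 15.5 TPM, and the immunoglobulin segment gene Ighv14-1 at 30.3 TPM, although no lymphocyte marker passed the filter. The 10 highest hold 3 short genes, Mir146b at 16.3, Gm37419 at 23.8 and Gm25887 at 14.3 TPM, for which few reads make a large TPM. Of all genes tested 491 reached the filter level in no resting library, and 286 of them were called higher. Such genes passed the filter through LPS libraries alone, so their selection favoured a rise and the count is no result. Over all genes tested 14.6% were called higher.

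**Figure D3:**
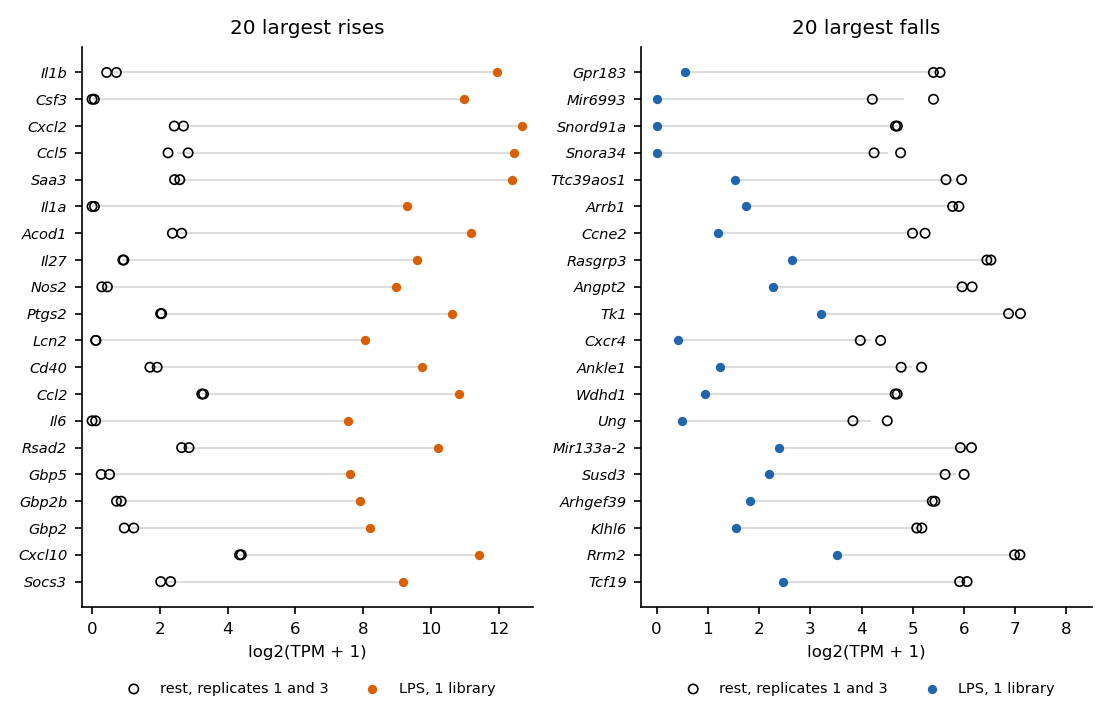
Levels in the single control libraries (x axis, log2(TPM + 1)) of the 20 genes named for the largest rises and the 20 named for the largest falls; open circles are resting replicates 1 and 3, filled circles are the LPS library. The 2 circles at rest lie close together for most genes. Genes were named only if the LPS library lay outside the resting range, so no filled circle could fall between them.

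Secreted signals rose almost as a group. Of 29 cytokine genes 26 passed the filter, and 24 of them rose under all 5 scalings (13.9% of all genes tested did), with a median change of 3.62 log2 units against -0.39 over all genes tested. A gene silent at rest could pass the filter through the LPS libraries alone, and such a gene had to rise. Of the 11 cytokine genes that reached the filter level in at least 2 resting libraries 10 rose under all 5 scalings, against 12.1% of all genes that did so. Il1b, the fever cytokine interleukin 1 beta at chromosome 2, 129364570 to 129371139, was at 0.349 and 0.645 TPM at rest and 3939 TPM with LPS, a change of 11.37 ± 0.25 (SE) (adjusted p = 7.22e-08). The LPS library lay far above both resting libraries. Csf3, which drives neutrophil production, was listed at 0 and 0.0472 TPM at rest and at 2015 TPM with LPS (10.94 ± 0.15 SE). Il1a, which encodes interleukin 1 alpha, went from 0.0503 and 0 to 621 TPM (9.24 ± 0.10 SE). Il27, a cytokine that acts on T cells, was at 0.876 and 0.914 TPM at rest and 771 TPM with LPS. The fever and acute-phase cytokine Il6 went from 0 and 0.0758 to 188 TPM. Their resting values did not overlap with the LPS value. Tnf, an early macrophage cytokine, started from 71.7 and 76.4 TPM and reached 2108 TPM, a smaller change (4.81 ± 0.093 SE) than that of Il6 (7.51 ± 0.14 SE). Ifnb1, the interferon of the TRIF arm, was at 0.0823 and 0 TPM at rest and 14.3 TPM with LPS. Inhibitory ligands rose in the same library: the anti-inflammatory cytokine Il10 went from 0.807 and 0.775 to 172 TPM. Il1rn, which blocks the interleukin 1 receptor, was at 102 and 114 TPM at rest and 3897 TPM with LPS. The one member called lower was Il16, at 4.41 and 4.50 TPM at rest and 3.11 TPM with LPS, and this call was lost under at least one other scaling. Il12b, Il12a and Il23a, subunits of the cytokines interleukin 12 and 23, did not pass the filter, and Il12b was at 0.0342 TPM with LPS.

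All 15 of 23 chemokine genes that passed the filter rose, under all 5 scalings, with a median of 5.86 log2 units. Of these, 10 reached the filter level at rest. Cxcl2 rose by 10.11 ± 0.20 (SE) and Ccl5, which attracts T cells and monocytes, by 9.92 ± 0.24 (SE), from 3.73 and 6.14 to 5640 TPM. Ccl2, the main monocyte chemokine, went from 8.77 and 8.43 to 1820 TPM. Cxcl10, an interferon-induced attractant of T cells, was at 19.4 and 20.2 TPM at rest and 2754 TPM with LPS. Every one of these LPS values exceeded both resting values. Summed over the list, chemokine TPM went from 1160 and 1267 to 48771. The related neutrophil attractants Cxcl1 and Cxcl3 stayed below the filter at 0.351 and 0.280 TPM with LPS.

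Acute-phase and antimicrobial genes followed in part. Of 15 tested members 11 rose under all 5 scalings, and of the 4 called lower 1 kept its call under all of them. Of the 12 that reached the filter level at rest 8 rose under all 5 scalings. Saa3, an acute-phase lipoprotein gene of macrophages, went from 5.02 and 4.40 to 5376 TPM (9.88 ± 0.33 SE). Lcn2, which withholds iron from bacteria, was at 0.0767 and 0.0819 TPM at rest and 267 TPM with LPS. The complement factor Cfb went from 3.26 and 2.11 to 261 TPM. The LPS value was above both resting values in each. Among 12 tested growth and vessel factors 6 rose and 4 fell (3 under all 5 scalings). Of the 9 that reached the filter level at rest 3 rose and 3 fell under all 5 scalings. The vasoconstrictor Edn1 was at 0 and 0.0294 TPM at rest and 27.9 TPM with LPS. The vessel factor Angpt2 went the other way, at 61.4 and 70.5 TPM at rest and 3.85 TPM with LPS (-3.78 ± 0.14 SE), as did Vegfb at 34.2 and 37.9 TPM at rest and 7.59 TPM with LPS and the growth factor Igf1 at 91.7 and 106 TPM at rest and 48.4 TPM with LPS.

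**Figure D4:**
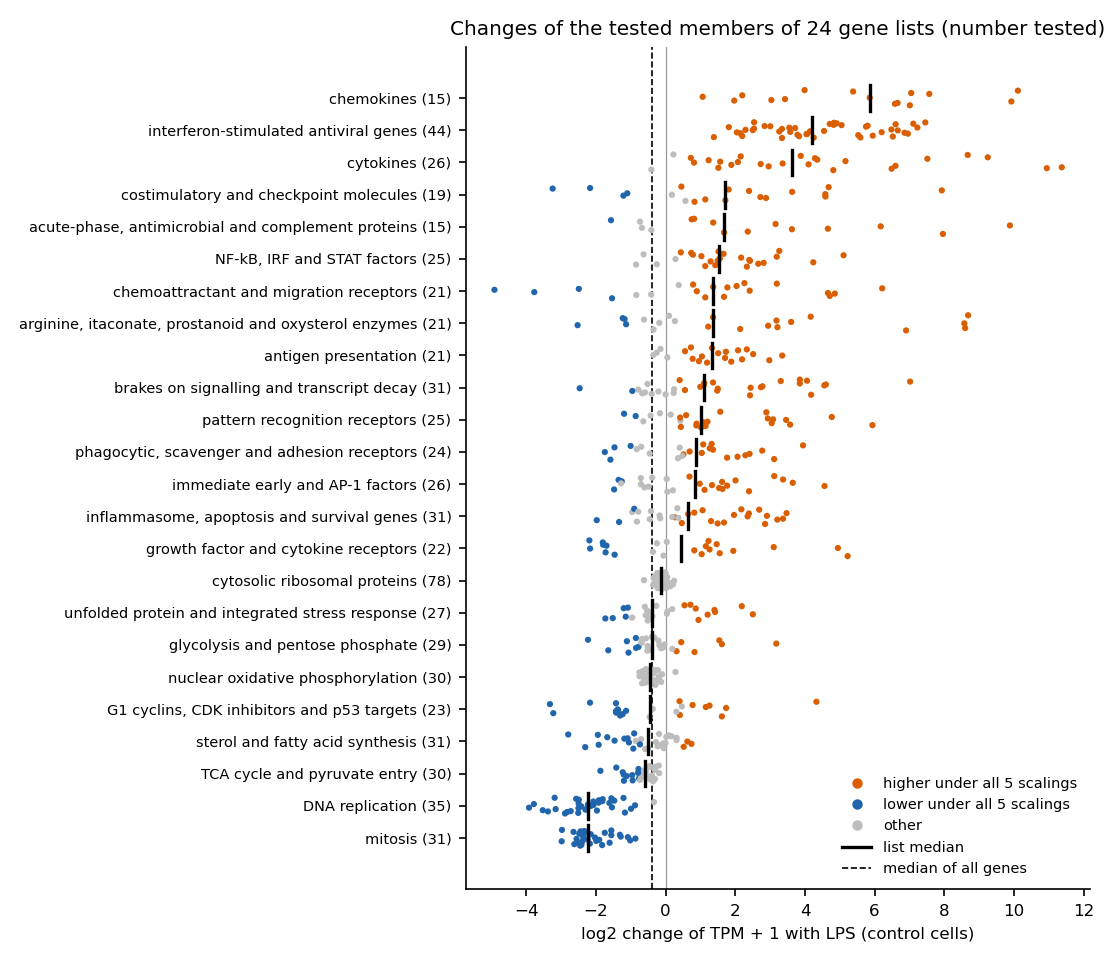
Log2 change with LPS (x axis) of the tested members of 24 gene lists (rows, in order of their median); each point is a gene, orange if called higher and blue if called lower under all 5 scalings, grey otherwise, and the black bar is the list median. The dashed line is the median of all genes tested, -0.39; chemokines and interferon-stimulated genes lie wholly to its right and the points of the DNA replication and mitosis lists lie on its left but for 1.

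Sensors of microbes rose, whereas the LPS receptor itself fell. Of 25 tested pattern recognition receptors 18 rose under all 5 scalings and 4 were called lower, 2 of them under all 5. Tlr4 went from 27.8 and 22.6 to 10.4 TPM, a fall of 1.19 ± 0.22 (SE, adjusted p = 0.00243). Its co-receptor Cd14 was at 1241 and 1352 TPM at rest and 2981 TPM with LPS (1.20 ± 0.092 SE), and Ly96 at 30.7 and 22.6 TPM at rest and 35.8 TPM with LPS was not called. The LPS library thus lay below both resting libraries for Tlr4 and above both for Cd14. Zbp1, a nucleic acid sensor that triggers cell death, went from 6.69 and 6.33 to 459 TPM. Ifih1, a sensor of double-stranded RNA, was at 8.71 and 8.27 TPM at rest and 258 TPM with LPS. Nlrp3, the inflammasome sensor, went from 20.9 and 24.8 to 282 TPM, and the sensors of bacterial wall fragments Nod1 and Nod2 rose by 2.93 ± 0.21 (SE) and 2.89 ± 0.13 (SE). Tlr13, a sensor of bacterial ribosomal RNA, was the other receptor that fell under all 5 scalings (-0.86 ± 0.091 SE).

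Receptors for chemoattractants moved in both directions, with a share of falls near that over all genes. Of 21 tested members 14 rose and 5 were called lower, 4 of them under all 5 scalings. Over all genes tested 13.9% rose and 21.7% fell under all 5 scalings. Of the 17 that reached the filter level at rest 11 rose and 4 fell under all 5 scalings. Gpr183, which guides cells along oxysterols and lies at chromosome 14, 121952551 to 121965195, was at 41.3 and 45.3 TPM at rest and 0.471 TPM with LPS (-4.91 ± 0.23 SE, adjusted p = 2.14e-06). Cxcr4, which holds cells in the bone marrow, went from 14.7 and 19.7 to 0.326 TPM (-3.77 ± 0.21 SE). The fractalkine receptor Cx3cr1 was at 65.9 and 67.9 TPM at rest and 22.4 TPM with LPS. All 3 fell below both resting libraries. Ccrl2, a receptor that binds the attractant chemerin, went from 2.48 and 1.94 to 236 TPM, and Hcar2, a receptor for ketone bodies and niacin, was at 2.24 and 2.77 TPM at rest and 100.3 TPM with LPS. The formyl peptide receptor Fpr2 went from 0 and 0.0617 to 26.0 TPM.

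Among 22 tested growth factor and cytokine receptors 11 rose and 9 were called lower, 7 of them under all 5 scalings. Both TNF receptors rose, Tnfrsf1b from 15.9 and 20.4 to 710.2 TPM and Tnfrsf1a from 61.4 and 79.6 to 157 TPM, and the death receptor Fas was at 6.33 and 6.41 TPM at rest and 226 TPM with LPS. The receptors that fell include Csf1r, on which macrophages depend for survival, at 459 and 541 TPM at rest and 109 TPM with LPS (-2.19 ± 0.10 SE). The TGF-beta receptor Tgfbr1 went from 9.21 and 8.37 to 1.18 TPM, the interleukin 6 receptor Il6ra from 21.3 and 24.4 to 5.87 TPM and the interferon gamma receptor chain Ifngr1 from 29.0 and 32.4 to 8.78 TPM. Ligand and receptor thus moved apart for Il6 and Il6ra. Ifnar1, a chain of the receptor for interferon beta, was at 29.1 and 31.8 TPM at rest and 31.2 TPM with LPS and was not called.

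Of 24 tested phagocytic and adhesion receptors 15 rose (14 under all 5 scalings) and 6 were called lower (4). Fcgr1, the high-affinity antibody receptor, was at 13.6 and 11.7 TPM at rest and 208 TPM with LPS and Fcgr4 at 11.6 and 10.8 TPM at rest and 105 TPM with LPS. The lipoprotein receptor Scarb1 went from 60.2 and 76.3 to 21.9 TPM (-1.58 ± 0.14 SE). Of 19 costimulatory and checkpoint molecules 13 rose and 4 fell, each under all 5 scalings. Of the 13 that reached the filter level at rest 9 rose and 4 fell under all 5 scalings. Cd40, through which T cells activate macrophages, was at 2.79 and 2.27 TPM at rest and 854 TPM with LPS (7.93 ± 0.16 SE). Cd274, which encodes the checkpoint ligand PD-L1, went from 2.36 and 2.99 to 87.1 TPM. The 4 that fell were Vsir, a checkpoint of T cells, at 49.2 and 62.3 TPM at rest and 4.96 TPM with LPS, Cd72 at 649.7 and 746 TPM at rest and 154 TPM with LPS, Havcr2, which encodes TIM-3, at 38.0 and 37.5 TPM at rest and 15.8 TPM with LPS, and Sirpa, the receptor for the signal of CD47 that spares cells from phagocytosis, at 301 and 354 TPM at rest and 152 TPM with LPS.

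Of 25 tested NF-kB, IRF and STAT factors 21 rose under all 5 scalings, with a median of 1.52 log2 units. The NF-kB co-regulator Nfkbiz was at 3.76 and 3.74 TPM at rest and 163 TPM with LPS (5.11 ± 0.12 SE), the inhibitor Nfkbia went from 129 and 167 to 933 TPM and the subunit Nfkb1 was at 43.1 and 49.6 TPM at rest and 248 TPM with LPS. Rela, the main activating subunit, was at 25.7 and 31.7 TPM at rest and 35.0 TPM with LPS and was not called. Irf7, the interferon-induced regulator of interferon genes, went from 64.6 and 66.4 to 1254 TPM, and the signal transducer Stat2 was at 22.6 and 25.9 TPM at rest and 229 TPM with LPS. Irf3, which the signal activates without new synthesis, was at 67.3 and 69.8 TPM at rest and 37.6 TPM with LPS, a change of -0.85 ± 0.14 (SE) that was called lower but not under all 5 scalings.

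Immediate early and AP-1 factors were mixed after 5 h, with 14 of 26 higher and 7 lower, 3 of these under all 5 scalings. Batf2, an interferon-induced factor, went from 3.38 and 4.83 to 118 TPM, the survival gene Ier3 from 35.7 and 34.8 to 454 TPM and the growth regulator Myc from 8.94 and 8.58 to 99.9 TPM. Fos, the classic immediate early gene, was at 67.1 and 77.1 TPM at rest and 29.5 TPM with LPS and fell by 1.26 ± 0.14 (SE). The 2 others that fell under all 5 were the nuclear receptor Nr4a1 (-1.48 ± 0.20 SE) and Bhlhe40 (-1.35 ± 0.12 SE). Of 25 lineage factors 13 rose (11 under all 5) and 7 fell (6). Within the C/EBP family Cebpd went from 7.56 and 8.86 to 157 TPM and Cebpb from 34.7 and 45.4 to 162 TPM, while Cebpa, which acts in the making of myeloid cells, was at 21.6 and 28.9 TPM at rest and 1.80 TPM with LPS (-3.22 ± 0.17 SE). The family members thus moved in opposite directions. Tfeb, the master factor of lysosome genes, went from 19.1 and 27.5 to 2.09 TPM (-2.96 ± 0.19 SE), whereas the related Tfec and Mitf rose by 1.04 ± 0.18 (SE) and 0.90 ± 0.12 (SE). Pu.1, encoded by Spi1, was at 314 and 390.1 TPM at rest and 459.5 TPM with LPS.

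Brakes on the signal rose with the signal. Of 31 tested inhibitors 20 rose under all 5 scalings, and 6 were called lower, 2 of them under all 5. Socs3, which blocks cytokine receptors, went from 3.07 and 3.99 to 583 TPM (7.02 ± 0.16 SE). Zfp36, which marks cytokine messenger RNA for decay, was at 24.6 and 27.5 TPM at rest and 654 TPM with LPS. Tnfaip3, the A20 deubiquitinase that ends NF-kB signalling, went from 6.37 and 6.49 to 174 TPM. The kinase phosphatase Dusp1 was at 15.6 and 20.1 TPM at rest and 269.8 TPM with LPS and the endonuclease Zc3h12a at 8.07 and 7.50 TPM at rest and 145 TPM with LPS. In all of them the LPS library exceeded both resting libraries. Zfp36l2, a relative of Zfp36, fell from 69.2 and 75.7 to 12.3 TPM (-2.47 ± 0.16 SE), and Dusp3 was the other that fell under all 5 scalings (-0.96 ± 0.15 SE).

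All 44 tested interferon-stimulated genes rose under all 5 scalings, by 1.39 to 7.45 log2 units with a median of 4.20. Of these, 39 reached the filter level at rest. This list was written from genes known for their response to interferon and, like all the lists, with earlier results of these data known. Over all genes tested 13.9% rose under all 5 scalings, and 12.1% of those that reached the filter level at rest. Rsad2, which makes an antiviral nucleotide, went from 6.27 and 5.25 to 1181 TPM (7.45 ± 0.19 SE). Gbp5 and Gbp2, guanylate-binding proteins that attack membranes of intracellular bacteria, were at 0.205 and 0.430 TPM at rest and 195 TPM with LPS and at 1.35 and 0.932 TPM at rest and 293 TPM with LPS. Isg15, a ubiquitin-like modifier, was at 32.5 and 38.6 TPM at rest and 2026 TPM with LPS, and Oas3, which starts RNA decay, had the smallest change (1.39 ± 0.13 SE). Summed over the list, TPM went from 1240 and 1315 to 21194. Gbp, Ifit, Slfn and Oas genes have close paralogs, between which the assignment of reads is uncertain.

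Of 21 tested genes of antigen presentation, most of them of class I, 17 rose under all 5 scalings and none was called lower. The peptide transporter Tap1 went from 18.3 and 22.8 to 217 TPM, its regulator Nlrc5 from 14.6 and 14.9 to 123 TPM and the immunoproteasome subunit Psmb10 from 47.3 and 67.3 to 327 TPM. Of the class II genes, H2-Aa, H2-Ab1 and H2-Eb1 did not pass the filter, and H2-Ab1 was at 0.113 TPM with LPS. Cd74, the class II invariant chain, was at 110.2 and 126 TPM at rest and 122 TPM with LPS, and it was not called, nor were H2-DMa (-0.35 ± 0.15 SE) and H2-DMb1 (-0.15 ± 0.24 SE), which help to load class II molecules.

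Enzymes that make small effector molecules showed some of the largest rises. Acod1, which makes itaconate, was at 4.17 and 5.25 TPM at rest and 2334 TPM with LPS (8.68 ± 0.15 SE), the nitric oxide synthase Nos2 went from 0.221 and 0.369 to 499.5 TPM (8.60 ± 0.12 SE) and Ptgs2, the inducible prostaglandin synthase, was at 3.06 and 3.15 TPM at rest and 1564 TPM with LPS (8.57 ± 0.13 SE). Several genes that supply Nos2 rose as well, the arginine carrier Slc7a2 from 0.0371 and 0.0381 to 8.61 TPM, Ass1, which regenerates arginine, from 3.26 and 2.56 to 68.8 TPM, and Gch1, which starts synthesis of its cofactor, from 11.2 and 12.6 to 116 TPM. Asl, which acts with Ass1, was at 24.9 and 36.6 TPM at rest and 26.5 TPM with LPS and was not called. Arg1, the competing arginase, did not pass the filter (0.240 TPM with LPS). Alox5, which starts leukotriene synthesis, went from 26.6 and 31.3 to 4.18 TPM (-2.52 ± 0.13 SE) and its partner Alox5ap from 382 and 405 to 174 TPM (-1.18 ± 0.10 SE), while the prostaglandin E synthase Ptges was at 2.35 and 3.15 TPM at rest and 27.7 TPM with LPS. Ptges2, another prostaglandin E synthase, was called lower (-0.62 ± 0.14 SE), but not under all 5 scalings. Of 21 tested members of this list 12 rose and 5 were called lower. Of the 16 that reached the filter level at rest 7 rose and 4 fell under all 5 scalings.

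Redox and iron genes had a median change of -0.016 log2 units, with 12 of 29 higher (10 under all 5 scalings) and 9 lower (5). The mitochondrial superoxide dismutase Sod2 went from 120 and 141 to 1134 TPM (3.11 ± 0.11 SE), whereas the cytosolic Sod1 was at 724 and 817 TPM at rest and 469 TPM with LPS (-0.71 ± 0.087 SE). Slc7a11, which imports cystine for glutathione, went from 3.33 and 3.34 to 31.0 TPM, but Gclc, the rate-limiting enzyme of glutathione synthesis, was at 37.1 and 44.0 TPM at rest and 7.71 TPM with LPS (-2.25 ± 0.11 SE). The glutathione peroxidases Gpx1 and Gpx4 fell too, with changes of -1.36 ± 0.10 (SE) and -1.25 ± 0.11 (SE). Among 17 matrix genes 7 rose and 5 were called lower (2 under all 5). Of the 11 that reached the filter level at rest 3 rose and 2 fell under all 5 scalings. The protease inhibitor Timp1 went from 0.539 and 0.443 to 45.9 TPM, the urokinase receptor Plaur was at 45.1 and 56.0 TPM at rest and 846 TPM with LPS and the collagenase gene Mmp9 went from 0.664 and 0.686 to 15.9 TPM. Urokinase itself, Plau, was at 116 and 137 TPM at rest and 39.1 TPM with LPS (-1.67 ± 0.11 SE), so that receptor and ligand moved in opposite directions.

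Of 31 tested genes of cell death and survival 18 rose under all 5 scalings and 8 were called lower (3 under all 5). Traf1, an NF-kB target in TNF receptor signalling, went from 18.2 and 25.0 to 247 TPM, Casp4, the sensor of intracellular LPS (caspase 11 in the mouse), was at 19.8 and 17.3 TPM at rest and 200.2 TPM with LPS and the survival gene Bcl2a1d went from 36.0 and 36.5 to 343 TPM. The Bcl2a1 copies are nearly identical, so their single levels are uncertain. Gsdmd, the pore former of pyroptosis, was at 104 and 133 TPM at rest and 247 TPM with LPS. Those that fell under all 5 scalings include Gsdme (-1.98 ± 0.16 SE) and the survival gene Bcl2 (-1.33 ± 0.18 SE).

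Glycolysis was not raised as a whole. Of 29 tested members 6 rose and 14 were called lower, 7 of them under all 5 scalings, and the median was -0.40, close to that of all genes. Pfkfb3, which makes the activator of phosphofructokinase, went from 7.94 and 11.1 to 93.0 TPM (3.18 ± 0.21 SE), and the glucose carriers Slc2a1 and Slc2a6 rose by 1.54 ± 0.13 (SE) and 1.62 ± 0.17 (SE). Pdk1, which inhibits pyruvate dehydrogenase, was at 24.5 and 26.7 TPM at rest and 4.68 TPM with LPS (-2.23 ± 0.23 SE). The glucose carrier Slc2a3 went from 17.7 and 21.3 to 5.54 TPM. Of 30 genes of the tricarboxylic acid cycle and pyruvate entry 27 were called lower and none higher, but 11 fell under all 5 scalings. Idh1, the cytosolic isocitrate dehydrogenase, was at 128 and 133 TPM at rest and 34.8 TPM with LPS (-1.87 ± 0.11 SE). Pcx, pyruvate carboxylase, went from 6.55 and 6.52 to 1.83 TPM. For 30 nuclear genes of oxidative phosphorylation the count called lower was 23 and went from 0 to 29 over the scalings, none called under all 5, so no direction is given. The 13 mitochondrially encoded messenger RNAs summed to 81816 and 50615 TPM in the 2 resting libraries and to 39503 with LPS. The resting libraries thus differed from each other by more than the second differed from the LPS library.

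Several genes of lipid synthesis fell. Of 31 sterol and fatty acid synthesis genes 16 were called lower, 12 of them under all 5 scalings, and 4 higher. Scd2, which makes monounsaturated fatty acids, was at 284 and 284 TPM at rest and 40.0 TPM with LPS (-2.79 ± 0.085 SE), the elongase Elovl5 went from 64.5 and 56.9 to 15 TPM and Srebf1, the regulator of fatty acid synthesis, was at 65.0 and 76.2 TPM at rest and 32.5 TPM with LPS (-1.09 ± 0.17 SE). Dhcr7, the last enzyme of cholesterol synthesis, went from 37.3 and 47.2 to 7.69 TPM (-2.31 ± 0.15 SE). Those called higher include Hsd17b7 (0.74 ± 0.20 SE) and Sc5d (0.52 ± 0.11 SE). Among 23 genes of lipid storage and use 6 rose and 11 were called lower, 6 of them under all 5 scalings, a share near that over all genes. Hilpda, which blocks lipolysis at the lipid droplet, was at 9.78 and 9.39 TPM at rest and 139 TPM with LPS, whereas the fatty acid oxidation genes Acadm and Cpt1a were at 69.9 and 76.7 TPM at rest and 19.6 TPM with LPS and at 19.9 and 22.8 TPM at rest and 5.95 TPM with LPS. The cholesterol exporters moved in opposite directions, Abca1 from 1.58 and 1.62 to 3.73 TPM and Abcg1 from 41.8 and 48.5 to 22.0 TPM.

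Genes of cell division fell together. All 35 DNA replication genes and all 31 mitosis genes were called lower, 34 and 31 of them under all 5 scalings (21.7% of all genes tested did), with medians of -2.22 and -2.24 log2 units against -0.39 for all genes. Ccne2, the cyclin that starts DNA replication, went from 36.8 and 30.9 to 1.29 TPM (-3.92 ± 0.25 SE). Tk1, which salvages thymidine, was at 116 and 136 TPM at rest and 8.23 TPM with LPS. Rrm2, the subunit that limits deoxynucleotide supply, went from 126 and 136 to 10.4 TPM. The mitotic cyclin Ccna2 was at 111 and 118 TPM at rest and 13.6 TPM with LPS, the kinesin Kif20a at 66.8 and 72.0 TPM at rest and 10.3 TPM with LPS and Anln, which acts at the cleavage furrow, at 64.2 and 63.6 TPM at rest and 7.26 TPM with LPS. Every one of these LPS values lay below both resting values. Regulators of G1 were mixed, with 8 of 23 higher and 13 lower. Gadd45b, a stress gene, went from 16.8 and 15.2 to 340 TPM and the cell cycle inhibitor Cdkn1a from 145 and 179.7 to 497 TPM, while the inhibitors Cdkn2c and Cdkn1b fell, with changes of -3.32 ± 0.13 (SE) and -1.36 ± 0.17 (SE). Cdk4 and Ccnd1, which drive cells out of G1, were at 388 and 424 TPM at rest and 151 TPM with LPS and at 151 and 162 TPM at rest and 57.5 TPM with LPS. Other large falls with a replication role were Ung, which removes uracil from DNA (-3.68 ± 0.26 SE), and Wdhd1 (-3.73 ± 0.16 SE).

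Ribosomal protein genes gave no direction that held across scalings. Of 78 cytosolic ribosomal protein genes 1 was called higher and 11 lower, and over the scalings the counts ran from 0 to 63 and from 0 to 45. Their highest single level was 3598 TPM. Of 30 ribosome biogenesis genes 7 fell and 3 rose under all 5 scalings, near the shares of 21.7% and 13.9% over all genes tested. Ubtf, a transcription factor of ribosomal DNA, was at 60.8 and 70.6 TPM at rest and 20.2 TPM with LPS (-1.65 ± 0.11 SE).

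Genes of the stress responses moved in both directions. Among 27 genes of the unfolded protein and integrated stress responses 9 rose and 14 were called lower, 5 of them under all 5 scalings. Over all genes tested 13.9% rose and 21.7% fell under all 5 scalings, and the share of falls in this list was near the latter. Ppp1r15a, which restores translation, went from 10.2 and 11.6 to 66.5 TPM, and Chac1, which degrades glutathione, was at 1.49 and 2.03 TPM at rest and 11.5 TPM with LPS. Atf4 itself went from 139.8 and 148 to 333 TPM. Atf6, a sensor of the endoplasmic reticulum, was at 31.1 and 32.6 TPM at rest and 8.91 TPM with LPS (-1.73 ± 0.082 SE). The chaperone cofactor Sdf2l1 went from 149 and 153 to 52.0 TPM. Hspa5, the central chaperone there, was at 721 and 777 TPM at rest and 854 TPM with LPS and was not called. Of 17 heat shock chaperones 8 rose, 7 of them under all 5 scalings. Hspa1b was at 11.9 and 14.1 TPM at rest and 62.1 TPM with LPS and its near-identical copy Hspa1a at 0.598 and 0.698 TPM at rest and 2.53 TPM with LPS, between which reads cannot be assigned with certainty, and Hspa8 went from 1963 and 2343 to 3676 TPM.

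Lysosome genes changed without a common direction, 5 rising and 5 falling under all 5 scalings of 29 tested. Both counts are near the shares of 13.9% and 21.7% over all genes tested. Cathepsin L (Ctsl) was at 417 and 487 TPM at rest and 1096 TPM with LPS. The proton pump subunit Atp6v0d2 went from 14.5 and 15.6 to 4.06 TPM (-1.66 ± 0.091 SE). In the cytoskeleton Marcksl1, a membrane-bound actin regulator, was at 82.7 and 96.1 TPM at rest and 1834 TPM with LPS (4.35 ± 0.11 SE). The related Marcks went from 0.0347 and 0 to 14.9 TPM. Stmn1, which takes microtubules apart, was at 317 and 362 TPM at rest and 103 TPM with LPS (-1.71 ± 0.096 SE). Of 14 tested clock genes 2 rose and 6 were called lower (4 under all 5 scalings), a share near the 43.4% over all genes. Among them Dbp went from 7.83 and 11.2 to 1.87 TPM and Tef from 19.7 and 19.7 to 6.91 TPM. The 2 clock repressors of the same family moved in opposite directions, Nr1d1 from 2.87 and 3.35 to 25.3 TPM (2.68 ± 0.12 SE) and Nr1d2 from 12.7 and 11.3 to 4.43 TPM (-1.26 ± 0.18 SE). Bmal1, listed as Arntl, was at 11.0 and 11.6 TPM at rest and 11.9 TPM with LPS and was not called.

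Among the largest falls were genes outside these lists. Rasgrp3, an activator of Ras in lymphoid and myeloid cells, was at 86.3 and 91.2 TPM at rest and 5.27 TPM with LPS (-3.84 ± 0.085 SE). Arrb1, a beta arrestin that dampens G protein receptors, went from 53.9 and 58.8 to 2.34 TPM (-4.10 ± 0.21 SE). The antisense transcript Ttc39aos1 was at 49.2 and 61.0 TPM at rest and 1.87 TPM with LPS. Klhl6, an adaptor for protein degradation in B cells, went from 32.8 and 35.2 to 1.94 TPM. The LPS value lay below both resting values in each. The same group holds 3 short RNA genes that were listed at 0 with LPS, Mir6993 after 17.5 and 41.4 TPM, Snord91a after 25.0 and 24.3 TPM and Snora34 after 26.1 and 18 TPM at rest, and such genes of 65 to 138 bases need few reads to reach these levels. Among noncoding RNAs and microRNA hosts Mir155hg, the host of the inflammatory microRNA miR-155, was at 0.381 and 0.594 TPM at rest and 40.9 TPM with LPS (4.82 ± 0.33 SE). Ptgs2os2, a transcript beside Ptgs2, went from 4.08 and 3.51 to 35.5 TPM. By annotated type, 16.8% of 412 antisense genes and 16.6% of 421 long intergenic RNAs were called higher, against 15.3% of 10938 coding genes. For lower calls the shares were 19.7%, 25.9% and 50.6%.

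Genes that rose often lay next to each other. Of 1155 placed genes that rose by at least 1 log2 unit 500 (43.3%) had a neighbour among the tested genes that also did, against 12.6% of the other genes. Such risers were 8.46% of all 13657 placed genes. Without neighbours that overlap on the chromosome the shares were 33.3% and 11.1%. Among coding genes whose neighbour has another name stem, which leaves out most paralogs, they were 26.9% and 12.7%. For genes that fell by at least 1 log2 unit, 20.1% of the placed genes, the shares were 44.5% and 33.2%. These shares are a description and carry no test.

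There were 19 runs of 5 or more adjacent risers, 129 genes in all. The longest, 11 genes on chromosome 11 (48861968 to 49135387, GRCm38), spans 273 kb and holds immunity-related GTPases, from Irgm1 (43.3 and 46.4 TPM at rest and 463 TPM with LPS) over Tgtp2 (0.294 and 0.716 TPM at rest and 83.8 TPM with LPS) to Ifi47 (9.99 and 9.24 TPM at rest and 300.2 TPM with LPS). A run of 10 genes on chromosome 1 (173673675 to 174031810) holds genes of the Ifi200 family, which includes DNA sensors, and the unprocessed pseudogenes Ifi203-ps and Gm18445. Among its members are Ifi204 (5.05 ± 0.17 SE), Ifi205 (5.53 ± 0.18 SE) and Ifi202b (4.53 ± 0.23 SE). In this run Mndal overlaps Ifi211 and Ifi203 on the chromosome. Members of these families are alike in sequence and can exchange reads. A run of 10 genes on chromosome 11 (83525778 to 83752642) holds the chemokines Ccl5, Ccl9, Ccl6, Ccl3 and Ccl4 and then 3 genes of small secreted proteins, Wfdc17 (20.6 and 21.8 TPM at rest and 543 TPM with LPS), Wfdc18 (0.206 and 0.0809 TPM at rest and 15.6 TPM with LPS) and Wfdc21. Changes within it ranged from 1.13 to 9.92 log2 units, so adjacent members differed widely in size. The run with the highest median, 7.03 log2 units, holds 5 guanylate-binding protein genes and the processed pseudogene Gm43802 on chromosome 3 (142493978 to 142638008). The run of 6 Ifit genes on chromosome 19 (34550694 to 34650009) had a median of 6.56.

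**Figure D5:**
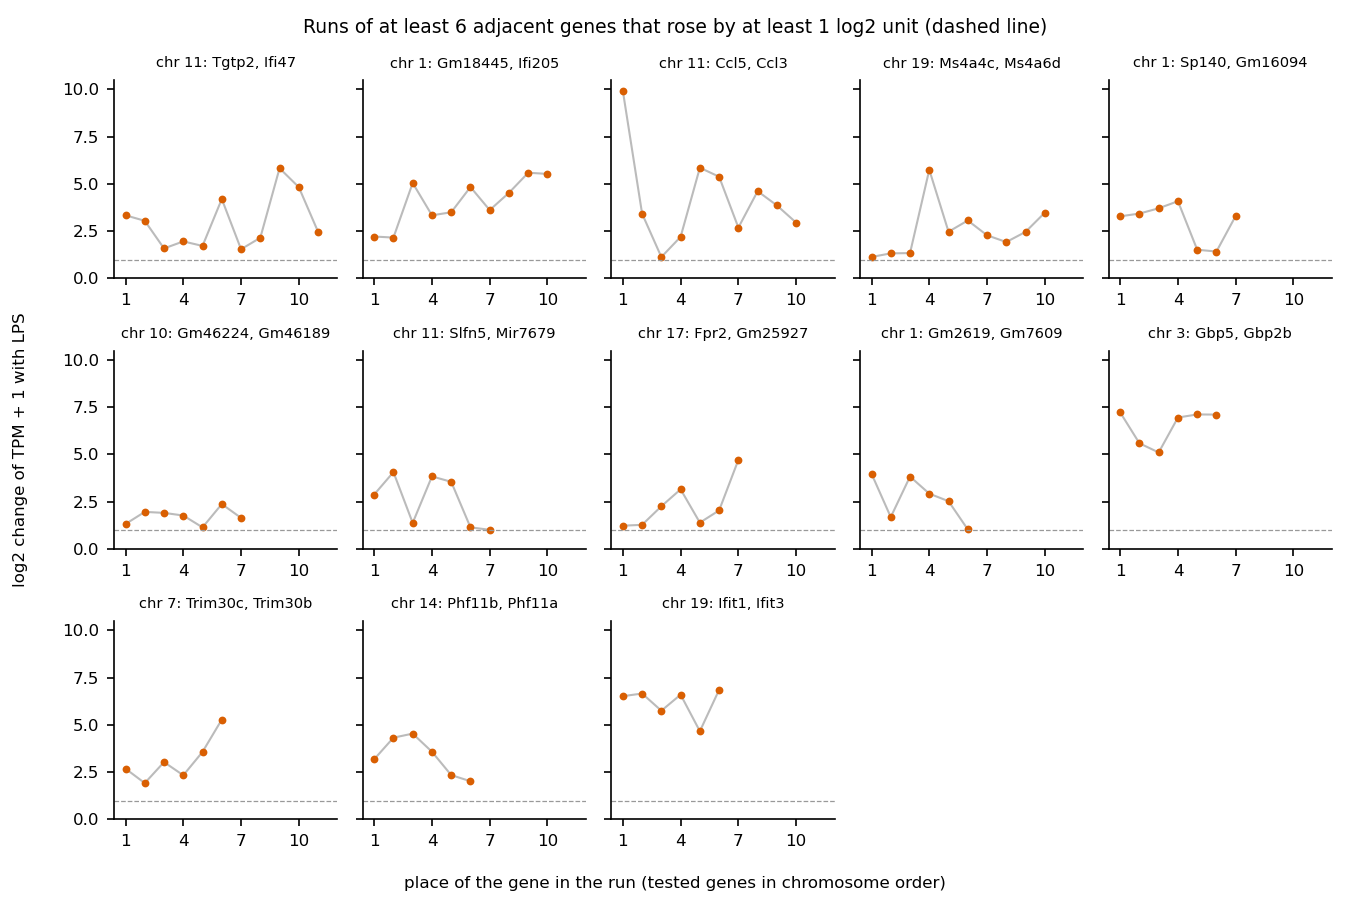
Log2 change with LPS (y axis) of the members of the 13 runs of at least 6 adjacent risers, in order of their place in the run (x axis, genes counted along the chromosome); lines join members of a run and each panel names its chromosome and leading genes. Members of the guanylate-binding protein run all lie above 5, while the chemokine run spans 1.13 to 9.92.

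Few genes passed a test of the difference between the response of control cells and that of cells with the Ccdc88a hairpin. In the latter Ccdc88a was at 6.93, 5.31 and 5.58 TPM at rest and at 3.08, 2.62 and 3.39 TPM with LPS. A test of the difference between the 2 responses called 41 of 13919 genes (0.295%), 27 with a larger (more positive) change in control cells and 14 with a smaller one, and 2392 genes had an unadjusted p under 0.05. The count depended on the setting, and was 227 with the GC trend removed and 360 without a filter. Leaving out each of the 8 other libraries in turn brought the 41 calls to between 0 and 23, and the fit with a replicate block to 0. One of these genes was Ccl7, which reached 128 TPM in the control library and 27.0, 26.8 and 25.4 TPM in the depleted libraries, with a difference of 2.27 ± 0.14 log2 units (SE, adjusted p = 0.00526). The control library lay above all 3 depleted ones. Itgax, which encodes the integrin CD11c, was at 8.86 and 9.71 TPM at rest and 23.7 TPM with LPS in control cells, and in depleted cells at 18.3, 17.6 and 16.9 TPM at rest and 19.9, 18.8 and 18.2 TPM with LPS, a difference of 1.16 ± 0.12. Sirpa fell by 1.10 log2 units in control cells and by 2.38 in depleted cells (difference 1.28 ± 0.14). In the other direction Il33, an alarmin of the interleukin 1 family, reached 2.70 TPM in the control library and 18.8, 13.6 and 18 TPM in the depleted ones (-2.25 ± 0.25). Ccl22, which attracts regulatory T cells, reached 107 against 363, 361 and 368 TPM (-1.64 ± 0.13). With 1 control library with LPS, a difference between the lines cannot be told apart from a deviation of that library. A gene that was not called is not thereby shown to respond alike in both lines.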

How the data were processed

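RNA of RAW macrophages that carry either a control hairpin or one against Ccdc88a was sequenced from libraries depleted of ribosomal RNA. The deposited table gives log2(TPM + 1) per gene for 10 of the 11 labelled samples. After back-transformation each column adds up to 1000000 TPM. Reads were quantified by the authors with kallisto 0.45.0 on GRCm38, per the submitters' processing notes. The annotation release was not given in the sources used here, and read depth is unknown because TPM keeps none. Identifiers were matched to GENCODE M21, which held 98.5% of them. No 2 libraries were identical.

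Genes whose log2(TPM + 1) reached 1 in 2 or more of the 10 columns were fitted with limma 3.58.1 (R 4.3.3, eBayes with trend) on 9 libraries in 4 groups, leaving 5 residual degrees of freedom, with Benjamini-Hochberg adjustment over all of them and a threshold of 0.05. The fit was tested on simulated data. TPM is relative to the total, so a few abundant transcripts that rise lower the values of all others. Calls were therefore repeated under 4 other scalings: trimmed means (TMM) of TPM, quantiles, rescaling without mitochondrial genes and the 100 most abundant genes, and removal of each library's GC trend. Other filters, a pseudocount of 0.1, other variance models, a replicate block and other sets of libraries were also tried.

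Genes and the 41 lists were chosen with earlier results of these data known. The rule named 203 genes: the 20 largest called rises and falls (with a log2 level of at least 3 in the higher group, no overlap of the libraries, 1 annotated gene per symbol and no Gm or Rik name), the 10 most abundant coding transcripts at rest and with LPS, the 10 highest risers listed at 0 at rest, up to 3 members of each list, the 8 largest called differences between the lines in each direction under the same conditions, and members of the 3 longest runs. Another 77 genes were chosen after their values were seen.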

Additional observations from a re-analysis of the deposited data

Results flagged for a closer look

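For 23 of the named genes the response of the control cells differed from that of the cells with the Ccdc88a hairpin at an adjusted p under 0.05 (limma, test of the difference between the responses). Most of them were named by this same test or after their values were seen, so their number is no result. Over all genes tested the test called 41 of 13919 (0.295%). These calls were not stable, since leaving out any one of 8 libraries left between 0 and 23 calls among all genes and a replicate block left 0.

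The difference of log2 changes, control minus depleted, was positive in 14 of the 23. It was 3.65 in the small nuclear RNA gene Gm25887, 2.27 in the chemokine gene Ccl7, 1.71 in Tm4sf19, 1.54 in the glucose carrier gene Slc2a8, 1.46 in the clock repressor gene Bhlhe41, 1.40 in Lhfpl2 and 1.40 in Gpr137b. It was 1.28 in Sirpa, 1.27 in Gas2l3, 1.16 in Itgax, 1.04 in Atp6v0d2, 1.02 in Csf1r, 0.95 in Scd2 and 0.79 in Tnf. Tm4sf19 was at 34.1 and 37.7 TPM at rest and 61.9 TPM with LPS in control cells, whereas depleted cells with LPS had 17.8, 18.3 and 15.2 TPM. Tnf reached 2108 TPM in the control library and 1333, 1368 and 1197 TPM in the depleted ones.

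The difference was negative in the others: -2.48 in the TNF family ligand gene Tnfsf15, -2.25 in Il33, -1.94 in the survival gene Bcl2a1a, -1.69 in Rnd1, -1.66 in the cyclin gene Ccnd2, -1.64 in Ccl22, -1.62 in the stress gene Ddit4, -1.22 in the antibody receptor gene Fcgr3 and -1.09 in Il1a. Il1a reached 621 TPM in the control library and 1414, 1234 and 1287 TPM in the depleted ones. Ccnd2 was at 0.928 TPM in the control library with LPS, against 11.8, 11.1 and 11.0 TPM in depleted cells.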

How the results depend on the processing

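Each of the counts below stands beside 2029 genes higher, 6038 lower and 41 differing between the lines in the analysis as reported, and the cause of each change was not tested. With all 10 libraries, resting replicate 2 included, 428 were called higher, 53 lower and 0 differed (226 by an unadjusted limma p under 0.05). With the 3 control libraries alone, which leave 1 residual degree of freedom, 955 were higher and 1396 lower, and a difference between lines cannot be computed. TMM scaling gave 3908, 3423 and 97, GC trend removal 4021, 3576 and 227, and rescaling a difference count of 65. No filter gave 360 differences and the stricter filter (log2(TPM + 1) of at least 3) 71. Leaving out each of 8 libraries in turn gave 1854 to 2049 higher, 5323 to 6168 lower and 0 to 23 differences, so that each of the 8 lowered that count by over 1.5 times. The 0 came without depleted LPS replicate 2 (2495 genes by an unadjusted limma p under 0.05). The control LPS library cannot be left out.

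The replicate block gave 1783 higher, 5267 lower and 0 differences (1835 by an unadjusted limma p under 0.05). Same-numbered depleted libraries correlated in their deviations from the group means by 0.059, 0.071 and 0.095, each sample best with its own number. Libraries with different numbers all correlated negatively, from -0.0695 to -0.0049. The same-number values are below 0.1 and were not taken as pairing.

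Of the 276 named genes in the fit 105 kept direction and side of the threshold under every alternative, and 234 did when the fits on all 10 and on 3 libraries are set aside. The change turned its sign as follows. Under TMM scaling it was 0.30 for Asl, 0.10 for H2-DMa, 0.11 for H2-DMb1, 0.23 for Bhlhe41, 0.49 for Eef1a1, 0.0049 for Ftl1, 0.30 for Gpr137b, 0.15 for Rpl14, 0.14 for Rpl37 and 0.11 for mt-Co1. With the GC trend removed it was 0.32 for Asl, 0.15 for H2-DMa, 0.34 for H2-DMb1, 0.18 for Bhlhe41, 0.41 for Eef1a1, 0.034 for Ftl1, 0.25 for Gpr137b, 0.074 for Il16, 0.17 for Rpl14 and 0.13 for Rpl37. Under quantile normalization it was 0.11 for Asl, 0.15 for H2-DMa, 0.16 for H2-DMb1, 0.082 for Bhlhe41, 0.030 for Ccdc88a, -0.089 for Cd74, 0.48 for Ftl1, -0.083 for Hspa5, 0.12 for Il16, 0.14 for Lyz2 and 0.34 for mt-Co1. Rescaling gave -0.0052 for Ifnar1, the replicate block -0.059 for Arntl and -0.0099 for Cd74. Leaving out a resting control replicate gave -0.046 to 0.15 for Cd74, -0.027 to 0.096 for Ifnar1, -0.45 to 0.088 for Asl and -0.057 to 0.035 for Eef1a1. With all 10 libraries 31 named genes turned: Asl 0.69, H2-DMa 0.51, H2-DMb1 0.24, Ptges2 0.52, Bhlhe41 0.52, Ccdc88a 0.19, Eef1a1 1.46, Fcgr3 0.53, Ftl1 0.98, Gpr137b 0.54, Gpx1 0.12, Gpx4 0.46, Igf1 0.42, Lyz1 0.95, Lyz2 0.93, Mdh1 0.42, Ndufb10 0.71, Ndufs7 0.69, Ndufv2 1.00, Rpl12 0.58, Rpl14 1.37, Rpl37 1.51, S100a4 1.47, Sod1 0.99, mt-Atp6 1.38, mt-Atp8 0.73, mt-Co1 1.51, mt-Co2 1.63, mt-Co3 1.30, mt-Nd2 1.06 and mt-Nd4l 1.03.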
